A study of Mus musculus with 12 samples.

Results

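The cytosolic ribosomal protein genes were examined in RNA-seq libraries of murine bone marrow-derived macrophages (BMDMs), which are macrophages grown in culture from bone marrow of C57BL/6J mice. Genes were taken by name (Rpl or Rps followed by a number and at most 1 letter, with Rplp0, Rplp1, Rplp2 and Rpsa) and kept at a mean of at least 1 TPM (transcripts scaled to a fixed total in each library) over all libraries. This rule found 78 genes among 34327 in the table, 46 of the large (60S) and 32 of the small (40S) ribosomal subunit, and 4 more genes with a matching name fell under the minimum. BMDMs were wild type in every group and were cultured for 24 hours in collagen I gels at 2 mg/ml (low collagen) or 7 mg/ml (high collagen) or on tissue culture (TC) plates, each untreated or with the type 2 cytokine IL-4 at 20 ng/ml. Each of the 6 conditions had 2 libraries, which gives 12. The labels do not say whether these came from separate mice or cultures, so that p-values measure only the spread between these libraries, which may be technical.

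Defining markers were those of macrophages. All 8 macrophage markers were above 1 TPM. Together, in 9 rows with these symbols, they made up 1.76% to 5.41% of a library, most of it Lyz2. Of the markers of other cells, 1 of 8 for fibroblasts, 2 of 8 for granulocytes, 0 of 6 for lymphoid and dendritic cells and 0 of 6 for erythroid cells had a mean of at least 1 TPM. The 2 granulocyte genes were S100a8 and S100a9, while Ly6g and Epx were listed at 0 in all libraries. TPM keep no sequencing depth, so the depth of the libraries is unknown and no counting interval is given. In bulk samples, fewer cells of a type and less RNA per cell cannot be told apart.

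The ribosome translates mRNA into protein. Its 2 subunits are each built of ribosomal RNA and a set of ribosomal proteins, most of which are needed in equal number. Ribosomal protein mRNAs are short, very abundant and carry a terminal oligopyrimidine (TOP) tract, a run of C and T that begins at the first base of the transcript, through which mTORC1 and LARP1 control their translation. Building ribosomes further requires RNA polymerase I, which makes the ribosomal RNA, and assembly factors in the nucleolus, and mammalian genomes hold many processed pseudogenes of ribosomal protein genes, which are copies of their mRNAs.

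As a group, the genes were among the most abundant transcripts of these macrophages. Their mean TPM had a median of 1190.5, 49 of the 78 were over 1000 TPM, and 31 of the 100 genes of highest mean TPM were among them. The highest were Rplp1, a protein of the acidic stalk of the large subunit, with 3663 TPM, Rps29, a small zinc-binding protein of the small subunit, with 3457 TPM, and Rpl41, the shortest of the ribosomal proteins, with 2884 TPM. None was listed at 0 in any library. Their transcripts were short, with a median of 925.5 bases against 2946 for all genes tested. The paralogs known from testis or muscle were near or at 0. Rpl10l was listed at 0 in all 12 libraries, Rpl3l had a mean of 0.0815 TPM and Rpl39l of 0.798 TPM, against 1214 TPM for Rpl10 and 573 TPM for Rpl39. Rps4l, annotated as a transcribed processed pseudogene and the only one of the 78 not annotated as protein coding, was the lowest with 3.43 TPM.

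Only 5 of the 78 had a mean under 100 TPM. Beside Rps4l these were Rps12 with 57.0 TPM, Rpl12 with 34.5 TPM, Rpl5 with 27.8 TPM and Rpl27 with 27.7 TPM, all core proteins of the ribosome. For each of these 4, a pseudogene or unnamed row of the table with nearly all of its sequence inside the transcript of the member was far higher. Rps12-ps3 had 2640 TPM, Gm10275 (a copy of Rpl12) 1484 TPM, Gm15500 (a copy of Rpl5) 1294 TPM and Rpl27-ps3 932 TPM. The following exon stretches of 60 bases (GRCm38, GENCODE annotation) are shown because they are identical, base for base, in the gene and in the copy, so that a short read from them cannot be assigned to either. They lie at chr10:23786821-23786880 on the minus strand in exon 3 of Rps12 and at chr19:59322385-59322444 on the plus strand in Rps12-ps3, at chr2:32962049-32962108 on the plus strand in exon 2 of Rpl12 and at chr10:29699194-29699253 on the minus strand in Gm10275, and at chr5:107901870-107901929 on the plus strand in exon 2 of Rpl5 and at chr7:114706101-114706160 on the minus strand in Gm15500.
Rps12 and Rps12-ps3: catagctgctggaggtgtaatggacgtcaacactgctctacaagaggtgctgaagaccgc
Rpl12 and Gm10275: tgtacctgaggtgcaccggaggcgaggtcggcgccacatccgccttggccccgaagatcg
Rpl5 and Gm15500: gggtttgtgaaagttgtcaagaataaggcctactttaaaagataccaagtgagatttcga

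Shared sequence was measured as the percentage of the 31-base words of a gene's transcripts that also occur in transcripts of another gene. It had a median of 45.2% over the 78 genes and reached 99.0% for Rpl35, and 47 genes were under 50%. Pseudogene and unnamed rows with at least 50% of their words inside a member were found for 66 of the 78 genes, 282 rows in all, of which 92 had a mean of at least 1 TPM. In 17 genes the sum of these rows was higher than the gene itself. The excess was 46.7 times for Rpl5, 46.4 times for Rps12, 43.3 times for Rpl12 and 36.8 times for Rpl27. The division of reads between a gene and its copies is therefore uncertain for these genes, and their values are given both as deposited and as the sum of the gene and its copies, called the family sum.

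**Figure D1:**
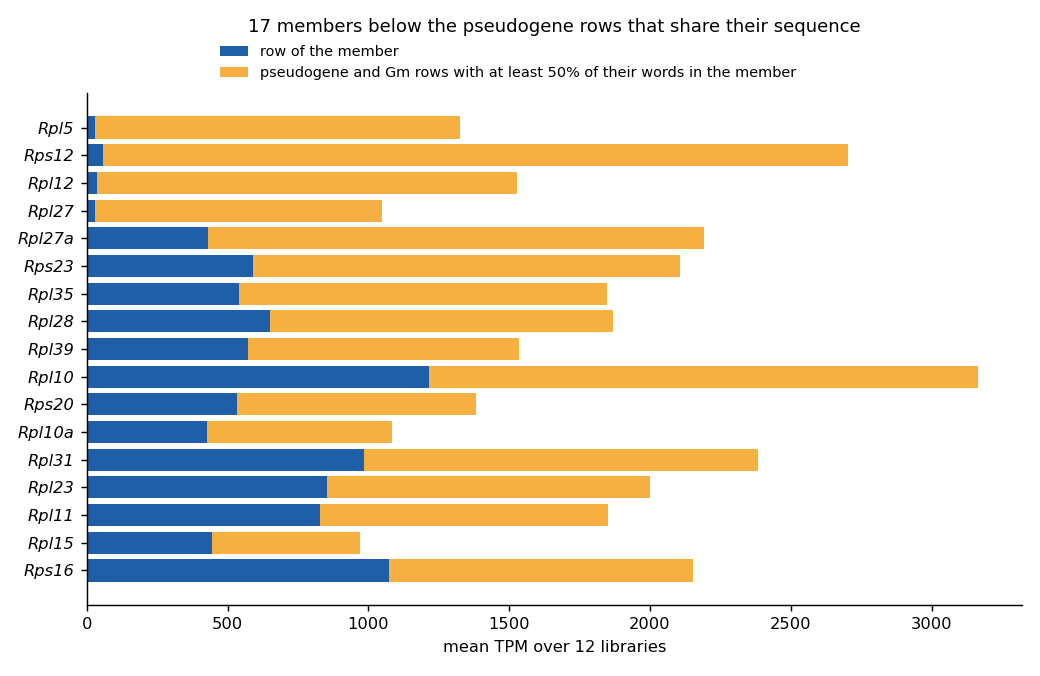
Mean TPM over the 12 libraries (horizontal axis) of the 17 ribosomal protein genes that were lower than the sum of the pseudogene and unnamed (Gm) rows sharing their sequence. Blue is the gene and orange the other rows; the blue part is close to 0 for Rpl5, Rps12, Rpl12 and Rpl27.

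RefSeq promoter windows (GRCm38.p6, 250 bases before to 50 from the start) were matched by symbol for 57 of the 78 genes. Runs of pyrimidines (C or T) were measured on the sense strand inside the 50 bases around an annotated start (25 on either side). A run of at least 8 bases was found there in 31 of the 57 genes (54.4%), against 22.3% of 27025 genes with a window. The word CTTTCC, read on the sense strand in the same 50 bases, was in 17.5% of the ribosomal protein genes and in 2.92% of all genes, and CTCTTTC, which overlaps it in CTCTTTCC, in 12.3% and 0.810%. Over whole windows and both strands, CCGGAAG, a core of ETS-factor sites, was in 42.1% against 9.93%, and TATAAA in 10.5% against 15.7%. In the 50 bases on the sense strand, CCGGAAG was in 12.3% against 2.00% and TATAAA in 5.26% (3 genes) against 1.04%. The direction for TATAAA thus depended on the window and strands read. These are matches of letters, not sites. The 100 bases below (75 before and 25 from the RefSeq start) are of 5 of the genes named in the comparisons. They were not picked by a rule, and Rps2 and Rpl28 were named after their values were seen. The longest pyrimidine run near the start is in capitals. Rps27l holds 2 such runs of equal length, and the one nearer the start is left in lower case. They are Rps27 at chr3:90213624-90213723 (minus strand), Rps27l at chr9:66946011-66946110 (plus), Rps18 at chr17:33955641-33955740 (minus), Rps2 at chr17:24719988-24720087 (plus) and Rpl28 at chr7:4792890-4792989 (plus). The run was 11 bases in Rps18 and Rpl28, 9 in Rps27 and Rps27l and 6 in Rps2.
Rps27: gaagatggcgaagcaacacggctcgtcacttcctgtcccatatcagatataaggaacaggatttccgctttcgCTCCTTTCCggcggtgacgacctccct
Rps27l: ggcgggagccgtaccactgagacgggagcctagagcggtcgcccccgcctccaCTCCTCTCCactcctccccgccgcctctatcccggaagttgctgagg
Rps18: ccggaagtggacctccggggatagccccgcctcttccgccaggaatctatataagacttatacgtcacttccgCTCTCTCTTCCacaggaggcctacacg
Rps2: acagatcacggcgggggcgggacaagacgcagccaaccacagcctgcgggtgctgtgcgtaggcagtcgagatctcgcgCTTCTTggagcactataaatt
Rpl28: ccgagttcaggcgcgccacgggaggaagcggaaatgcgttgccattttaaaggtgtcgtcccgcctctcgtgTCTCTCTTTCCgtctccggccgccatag

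Rps27 and Rps27l are paralogs that encode versions of the same protein of the small subunit, and Rps27l is known as a target of p53. They are shown because their transcripts changed in opposite directions between gels and plates. Their coding sequences of 252 bases are identical at 192 positions (76.2%) and share no 31-base word (0), the longest identical run being 11 bases. The first 120 coding bases are given from the start codon, with the 28 differing positions in capitals. The whole transcripts, with their untranslated parts, span chr3:90212671-90213651 on the minus strand for Rps27 and chr9:66946086-66949512 on the plus strand for Rps27l (GRCm38).
Rps27: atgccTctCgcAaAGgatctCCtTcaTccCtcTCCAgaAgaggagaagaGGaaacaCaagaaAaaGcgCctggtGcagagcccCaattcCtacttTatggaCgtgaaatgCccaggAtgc
Rps27l: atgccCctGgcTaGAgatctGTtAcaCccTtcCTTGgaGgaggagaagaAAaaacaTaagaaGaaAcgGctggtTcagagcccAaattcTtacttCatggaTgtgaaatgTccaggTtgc

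Together the 78 genes made up between 7.52% and 11.4% of all TPM in a library. On TC plates the share was 7.67% and 7.52% untreated and 8.90% and 8.74% with IL-4. In low-collagen gels it was 10.0% and 9.10% untreated and 10.8% and 11.4% with IL-4, and in high-collagen gels it was 9.85% and 10.1% untreated and 11.1% and 10.7% with IL-4. Each IL-4 library was thus above both untreated libraries of the same culture, and each gel library was above each plate library of either treatment. Low- and high-collagen libraries overlapped. With the copies added by shared words, the means of the 2 libraries were 9.70% and 11.4% on plates, 12.3% and 14.3% in low-collagen gels and 12.8% and 14.1% in high-collagen gels (untreated and IL-4 in each pair). No permutation test of 2 against 2 libraries can give a p-value under 0.33, so the share was not tested.

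**Figure D2:**
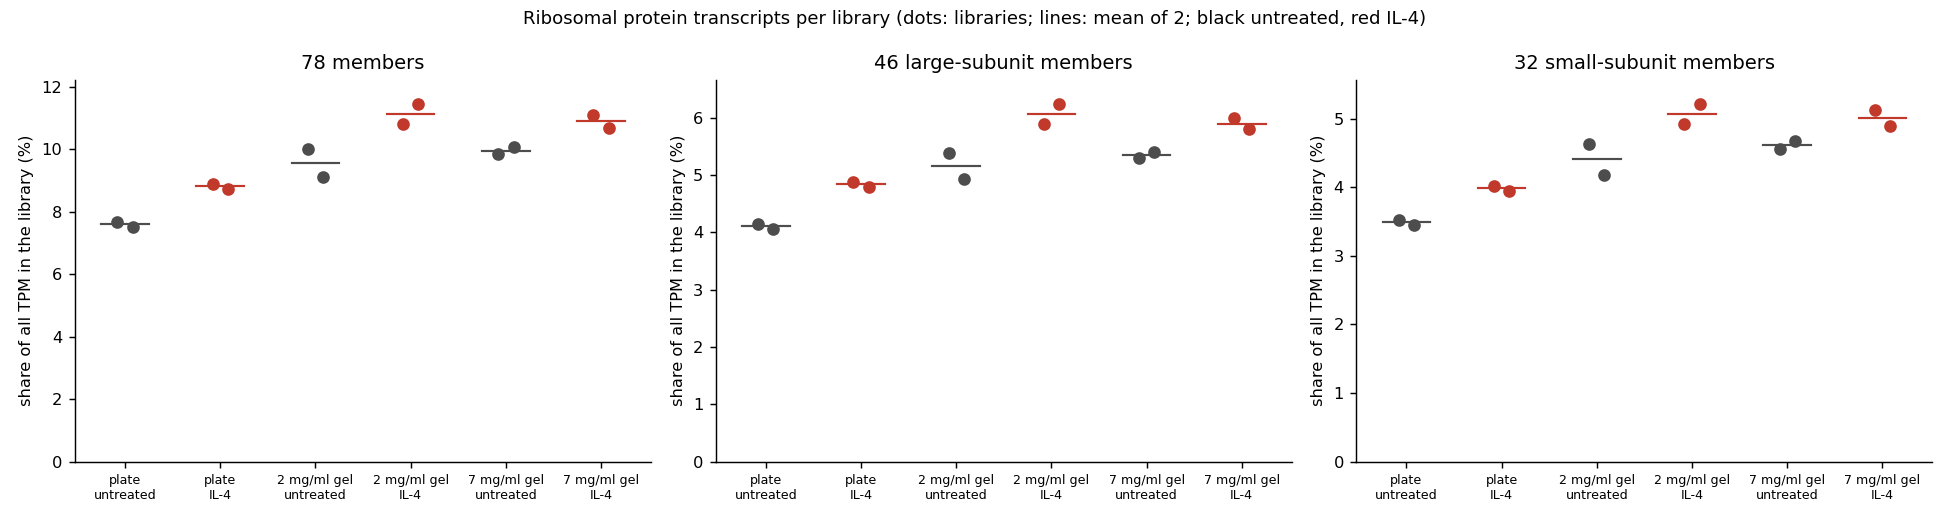
Share of all TPM of a library (vertical axis, percent) taken by the 78 ribosomal protein genes (left), the 46 of the large subunit (middle) and the 32 of the small subunit (right) in 6 culture conditions, with a dot per library and a line at the mean of 2. IL-4 libraries (red) lie above untreated libraries (black) of the same culture, and gels lie above plates in all 3 panels.

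The first comparison asked what IL-4 did to these transcripts in each culture. With IL-4, most ribosomal protein transcripts rose by a small amount in low-collagen gels and on plates, and fewer passed the test in high-collagen gels. In low-collagen gels 57 of 78 rose and 3 fell, where 13.2% of all genes were called higher and 40.4% lower. On plates 56 rose and 0 fell, against 14.7% and 24% of all genes. In high-collagen gels 29 rose and 1 fell, against 11.5% and 22.8%. Calls required an adjusted p-value under 0.2 (limma on log2(TPM + 1), Benjamini-Hochberg over all genes), and all fold changes are on that scale.

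The median log2 fold change of the 78 genes was 0.20 in low-collagen gels, 0.11 in high-collagen gels and 0.20 on plates, while the median of all genes tested was −0.19, −0.10 and −0.06. Relative to that median they were higher by 0.40, 0.21 and 0.26. Both subunits took part. Of the large subunit 34, 18 and 35 of 46 genes rose in low-collagen gels, high-collagen gels and on plates, and of the small subunit 23, 11 and 21 of 32. The 47 genes with less than 50% of shared words gave 34, 16 and 31 rises and 0 falls in each. Of the 591 to 596 other protein-coding genes with transcripts under 1000 bases, 149, 121 and 98 were called higher and 118, 91 and 113 lower, with medians of 0.024, 0.035 and −0.0014. In all 3 cultures 26 genes were called higher, and 9 were called higher in none. The shares of all genes called higher in all cultures or in none were not counted.

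These counts depended on scaling and on single libraries. Under quantile normalization 15 rose and 10 fell in low-collagen gels, 9 and 9 in high-collagen gels and 35 and 2 on plates, and when the median of the 78 genes was set equal in all libraries the calls were divided by construction, with 14 and 15, 8 and 5, and 12 and 11. The shares of all genes given above belong to TPM as deposited. Those under other scalings are not given, so these counts have no background beside them. In low-collagen gels 34 genes were called without untreated library 2 and 31 without IL-4 library 2, and in high-collagen gels 10 and 17 without untreated library 1 or 2 and 9 and 17 without IL-4 library 1 or 2.

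**Figure D3:**
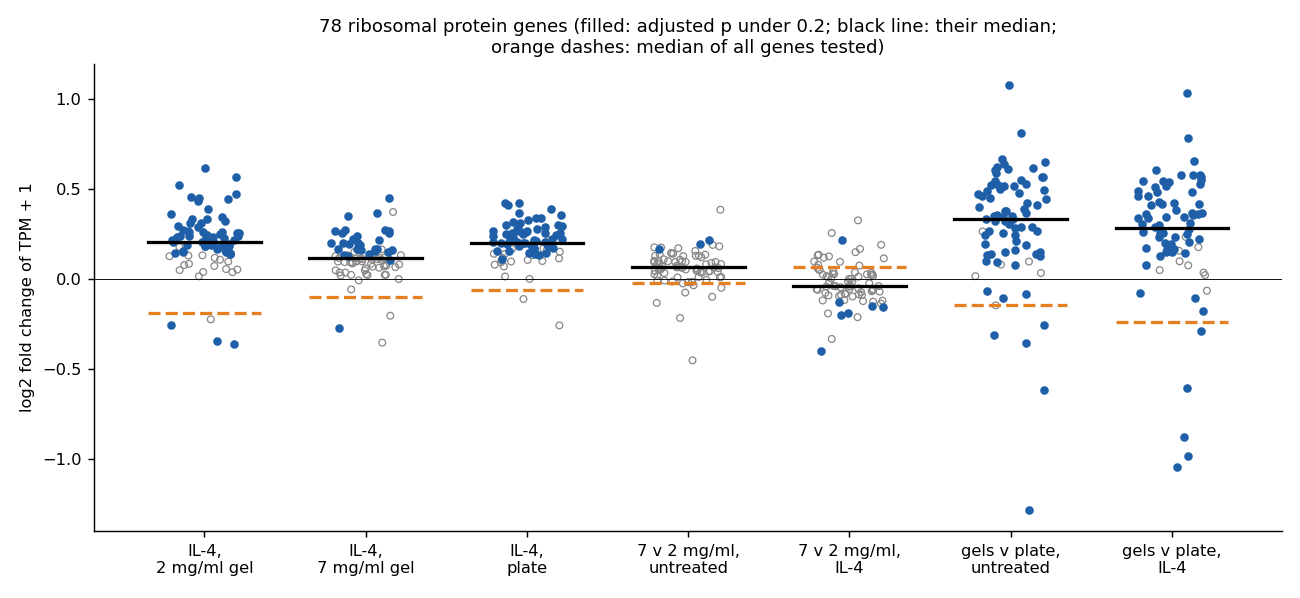
Log2 fold change of TPM + 1 (vertical axis) of each of the 78 ribosomal protein genes in 7 comparisons, filled where the adjusted p-value was under 0.2. The black line at the median of the 78 lies above the orange dashes at the median of all genes tested for IL-4 in each culture and for gels against plates, and below them for 7 against 2 mg/ml with IL-4.

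In the small subunit, Rps18, a protein of the head of the subunit, had the largest rise with IL-4 in high-collagen gels and one of the 2 largest in low-collagen gels and on plates. Its TPM was 1493 and 1382 in untreated plate libraries and 1965 and 1892 with IL-4. It was 1501 and 1385 untreated and 2122 and 2160 with IL-4 in low-collagen gels, and 1560 and 1629 against 2225 and 2133 in high-collagen gels. The groups did not overlap in any culture. IL-4 raised it by 0.57 on the log2 scale (SE 0.057, adjusted p = 0.000306, limma) in low-collagen gels, 0.45 (SE 0.057, adjusted p = 0.00152) in high-collagen gels and 0.42 (SE 0.056, adjusted p = 0.000452) on plates. Of its words 86.2% also occur in transcripts of other genes, so the division of its reads is uncertain, and the copies had a summed mean of only 1.79 TPM, too little for the family sum to bear on this.

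Rps2, which lies near the mRNA entry of the small subunit, rose with IL-4 in the same way. On plates it had 1475 and 1510 TPM untreated and 1957 and 1860 TPM with IL-4. In low-collagen gels it had 1210 and 1135 against 1615 and 1646 TPM, and in high-collagen gels 1149 and 1167 against 1503 and 1482 TPM. Untreated and IL-4 libraries were separate in each culture, with log2 fold changes of 0.48, 0.37 and 0.35 in low-collagen gels, high-collagen gels and on plates (adjusted p = 0.000413, 0.00232 and 0.000403, limma). Rpsa, the laminin receptor protein of the small subunit, rose in low-collagen gels, by 0.29 (adjusted p = 0.00998, limma), and its values of 0.11 and 0.10 in high-collagen gels and on plates did not pass. These differences between cultures were tested by the interactions described further on, in which Rpsa was not called. Rps27 was not called in any culture with IL-4, at 0.049, 0.062 and 0.10.

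In the large subunit the stalk proteins, which bind the translation factors that use GTP, were called higher with IL-4 in every culture, though in high-collagen gels each of the 3 calls was lost without some single libraries. Rplp1 had 3641 and 3099 TPM untreated and 4420 and 4752 TPM with IL-4 in low-collagen gels, 3372 and 3303 against 4176 and 3852 TPM in high-collagen gels, and 2956 and 2931 against 3727 and 3732 TPM on plates. The log2 fold changes were 0.45, 0.27 and 0.34 (adjusted p = 0.00598, 0.0709 and 0.00772, limma). Rplp0 rose by 0.26, 0.13 and 0.24 and Rplp2 by 0.20, 0.17 and 0.32 in the same order. Of these, Rplp0 in high-collagen gels and Rplp2 in low-collagen gels had the other sign under quantile normalization (−0.0070 and −0.030). In high-collagen gels the call of Rplp1 was lost without untreated library 2 or IL-4 library 1 of those gels, and that of Rplp2 without either untreated library or IL-4 library 1. That of Rplp0 was lost without any of the 4 high-collagen libraries or either IL-4 library of low-collagen gels. Rpl10a, a protein at the opposite stalk of the large subunit, had the largest rise in low-collagen gels, from 383 and 364 TPM to 579 and 568 TPM (0.62, SE 0.068, adjusted p = 0.000489), and 0.37 as the family sum.

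The genes that fell with IL-4 were genes with abundant copies. Rpl10, Rpl12 and Rpl5 were called lower in low-collagen gels, and Rpl12 in high-collagen gels. None of these 4 calls held when each library was left out in turn. In low-collagen gels, Rpl10 was lost without untreated library 2 or IL-4 library 2 (range −0.52 to −0.20 over the 8 libraries left out) and Rpl12 without untreated library 1 or IL-4 library 1 (−0.51 to −0.18). The calls of Rpl5 in low-collagen gels (−0.42 to −0.086) and of Rpl12 in high-collagen gels (−0.33 to −0.22) were each lost in 6 of 8 cases. For Rpl5 the libraries left out were untreated library 2 and IL-4 library 1 of low-collagen gels and all 4 high-collagen libraries, and for Rpl12 they were all 4 high-collagen libraries and both IL-4 libraries of low-collagen gels. Rpl12, at the base of the stalk, went from 33.95 and 26.9 TPM to 22.5 and 24.7 TPM in low-collagen gels and from 31.6 and 34.3 TPM to 26.8 and 27.3 TPM in high-collagen gels, with log2 fold changes of −0.34 and −0.27. On plates it went the other way, from 43.5 and 35.8 TPM to 57.8 and 49.0 TPM (0.42). As the family sum, Rpl12 was called higher in all 3 cultures, by 0.39, 0.34 and 0.37. Rpl10, a late-joining protein of the large subunit, fell by 0.36 on the log2 scale as deposited and had 0.058 as the family sum (adjusted p = 0.42, limma). Rpl5, which carries 5S ribosomal RNA to the ribosome, fell by 0.25 and had 0.12 as the family sum (adjusted p = 0.0822). Over all 78 family sums 64, 36 and 70 rose with IL-4 in low-collagen gels, high-collagen gels and on plates, and 0 fell in each.

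Among other genes of translation, Eef1g, a subunit of the elongation factor that loads tRNA, rose with IL-4 by 0.51, 0.49 and 0.48 in low-collagen gels, high-collagen gels and on plates, and Eif5a, a factor that rescues stalled ribosomes, by 0.78, 0.60 and 0.37. The lists that follow are to be read against the shares of all genes, of which 13.2%, 11.5% and 14.7% rose and 40.4%, 22.8% and 24% fell in the same order, and no test set them against these shares. Translation factors with TOP mRNAs as a list showed 4 rises and 6 falls of 19 in low-collagen gels, 2 and 2 in high-collagen gels and 11 and 1 on plates. Despite its name, this list also holds genes that are not translation factors, among them Tpt1, Npm1, Hnrnpa1 and Nap1l1. Ribosome assembly factors showed 12 rises and 5 falls of 50, 8 and 5, and 15 and 0. Mitochondrial ribosomal proteins showed 13 rises and 9 falls of 78, 8 and 8, and 14 and 4. RNA polymerase I machinery showed 1 rise and 4 falls of 14, 0 and 2, and 1 and 0. Other initiation factors showed 4 and 8 of 27, 4 and 2, and 6 and 1, and regulators of mTORC1 and TOP mRNAs 1 and 8 of 22, 2 and 4, and 3 and 2. Among the regulators Myc, a transcription factor that drives genes of ribosome production, rose by 1.82, 1.70 and 0.68. Falls called in these lists included Deptor (−1.20 and −0.90) and Taf1d (−0.84 and −0.43) in low- and high-collagen gels. Nap1l1 had −0.51, −0.36 and −0.35 in low-collagen gels, high-collagen gels and on plates, and Eif4a2 −0.53 and −0.36 in low- and high-collagen gels.

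The next comparison set gels against plates, 4 gel libraries against 2 plate libraries at each treatment. Ribosomal protein transcripts were higher in gels as a group, and a few were lower. Without IL-4, 64 of 78 were higher and 8 lower, where 29.7% of all genes were called higher and 46.7% lower. With IL-4, 61 were higher and 8 lower, against 25.7% and 51.8%. The median log2 fold change was 0.33 and 0.28 for the 78 genes and −0.15 and −0.24 for all genes tested, a difference of 0.48 and 0.52. Of the large subunit 39 and 36 of 46 genes were higher, and of the small subunit 25 of 32 at each treatment. The same 60 genes were called higher and the same 7 lower with and without IL-4, from separate libraries, and 0 had opposite calls. Of all genes, 76.4% were called without and 77.5% with IL-4. The share of all genes called alike at both treatments was not counted.

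Genes with less than 50% of shared words gave 41 higher and 5 lower of 47 without IL-4 and 39 and 4 with IL-4. Other short protein-coding genes gave 226 higher and 222 lower of 596 without IL-4 and 252 and 205 with IL-4, with medians of 0.02 and 0.10. Setting the median of the 78 genes equal in all libraries left 29 higher and 30 lower without IL-4 and 29 and 28 with IL-4, so that the individual genes moved by unequal amounts. Gels and plates also differed in markers of proliferation, which took 0.201% to 0.257% of TPM on plates and 0.0493% to 0.0614% in gels, and in the summed granulocyte markers, which had 5.38 to 9.70 TPM on plates and 14.3 to 31.1 TPM in gels. The 13 mitochondrially encoded genes took 5.22% to 5.86% of TPM on plates and 3.30% to 4.16% in gels, with 0 higher and 10 lower without IL-4 and 0 and 11 with IL-4. Macrophage markers took 1.76% to 2.87% on plates and 3.08% to 5.41% in gels. Most of this sum was Lyz2, with a mean of 30694 TPM against 2187 TPM for Cd68, the next highest. Of the 8 markers, 5 were higher and 2 lower in gels without IL-4, and 7 and 1 with IL-4. Gel and plate libraries did not overlap in any of these sums. Their part in the result was not tested.

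The largest rise was that of Rps27. Its TPM was 1435 and 1378 in untreated plate libraries and 1576 and 1446 with IL-4. It was 3211 and 2721 in untreated low-collagen gels, 2919 and 3203 with IL-4, 2973 and 3006 in untreated high-collagen gels and 3221 and 3023 with IL-4. Every gel library was above every plate library. The ratio of the means was 2.12 without and 2.05 with IL-4, and the log2 fold changes were 1.08 (SE 0.070, adjusted p = 6.93e-07, limma) and 1.03 (SE 0.070, adjusted p = 1.15e-06).

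Its paralog Rps27l was lower in gels. It had 446 and 460 TPM on plates untreated and 564 and 603 TPM with IL-4. In gels it lay between 260 and 335 TPM over all 8 libraries, below every plate library. The log2 fold changes were −0.62 (SE 0.064, adjusted p = 1.74e-05, limma) without and −0.88 (SE 0.064, adjusted p = 1.75e-06) with IL-4. Rps27 and Rps27l share no word of 31 bases (0), and the sequences given above differ throughout the first 120 bases. A second copy, Rps27rt, which the name rule leaves out, was at 6.71, 0.00601, 0 and 0 TPM on plates and between 6.30 and 37.8 TPM in gels.

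**Figure D4:**
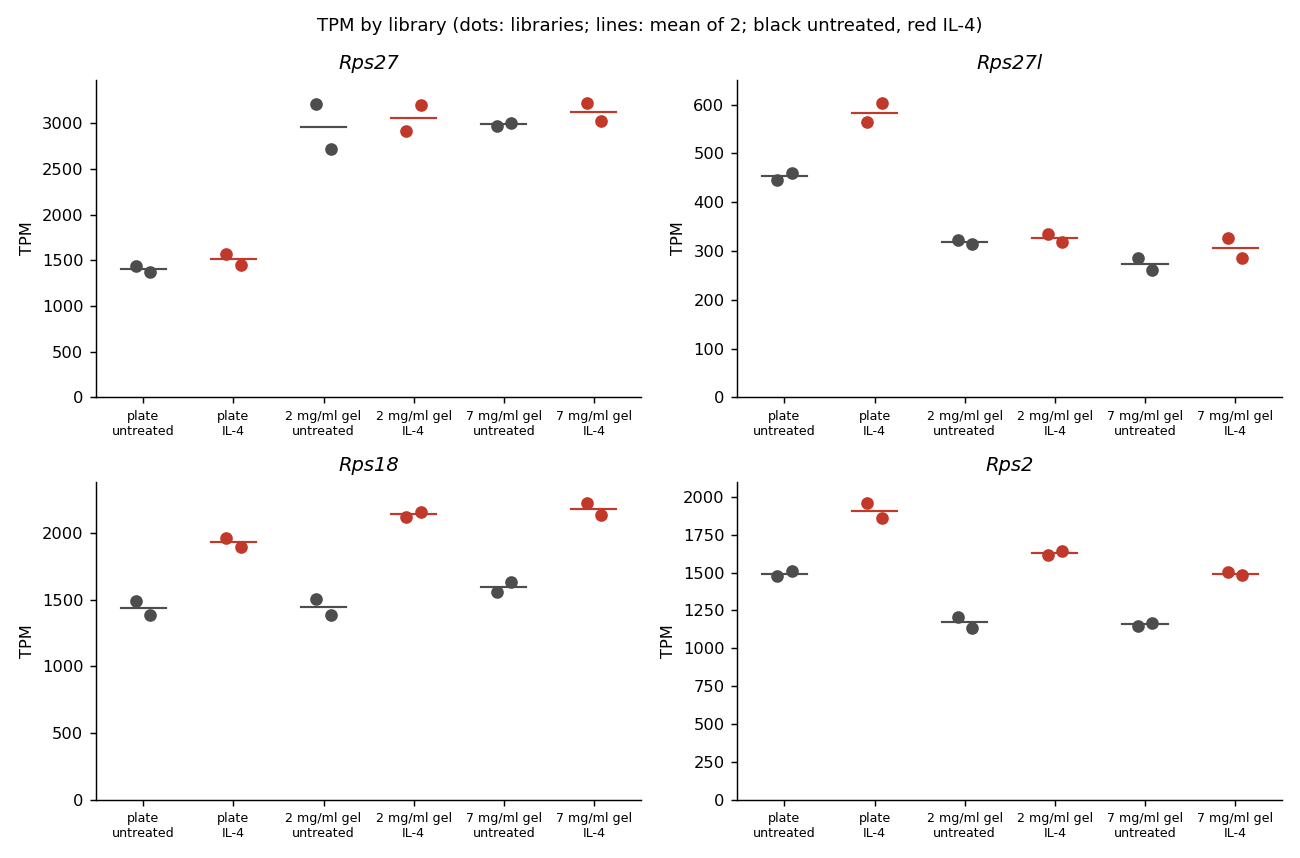
TPM (vertical axes, starting at 0) of Rps27, Rps27l, Rps18 and Rps2 in each library of 6 culture conditions, black untreated and red with IL-4, with a line at the mean of 2. Rps27 and Rps27l separate gels from plates in opposite directions, Rps18 separates IL-4 from untreated libraries, and Rps2 separates IL-4 from untreated within each culture and gels from plates within each treatment.

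Rps2 was also lower in gels, by −0.36 without and −0.29 with IL-4 (adjusted p = 2.94e-05 and 0.000123, limma), and its gel libraries at 1135 to 1210 TPM untreated and 1482 to 1646 TPM with IL-4 lay below the plate libraries of the same treatment. Rps14, which lines the platform of the small subunit, was the second largest rise at both treatments, from 883 and 938 TPM on untreated plates to between 1413 and 1749 TPM in untreated gels, with log2 fold changes of 0.81 and 0.78 (adjusted p = 2e-06 and 2.9e-06). Rps29 rose by 0.59 and 0.58, Rps9 by 0.64 and 0.38 and, in the large subunit, Rpl28 by 0.67 and 0.54. The stalk genes rose by less, with 0.20 and 0.15 for Rplp0, 0.19 and 0.20 for Rplp1 and 0.39 and 0.25 for Rplp2. All of these but that of Rplp2 without IL-4 were below the median of the 78 genes, so that setting that median equal turns their sign by construction. Rplp0 with IL-4 had the other sign under quantile normalization too. Rps18 rose by 0.08 (adjusted p = 0.188) and 0.16 (adjusted p = 0.0137, limma), and both had the other sign under quantile normalization (−0.076 and −0.070).

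The remaining lower genes fell in 2 kinds. Rpl27, Rpl12 and Rpl5 had abundant copies. Rpl27 had 42.2 and 45.5 TPM on untreated plates and between 14.96 and 20.7 TPM in untreated gels (−1.29, and −0.99 with IL-4), and its family sum was higher in gels, by 0.13 at both treatments (adjusted p = 0.0147 and 0.0132, limma). Rpl5 had −0.26 and −0.60 as deposited and 0.46 and 0.37 as the family sum. Rpl12 had −0.31 and −1.05 as deposited and was lower as the family sum too, by −0.13 at both treatments (adjusted p = 0.0393 and 0.0385). Rpl4 (−0.07 and −0.18) and Rpl8 (−0.11 and −0.08), proteins of the core of the large subunit, were lower by small amounts, as was Rpsa without IL-4 (−0.08). All of these small falls had the other sign under median-ratio rescaling. Over the family sums, 68 genes were higher and 5 lower without IL-4 and 66 and 6 with IL-4.

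Most other genes of ribosome production and translation were lower in gels, where 46.7% of all genes were lower without and 51.8% with IL-4. All 50 ribosome assembly factors were lower, with medians of −1.28 without and −1.59 with IL-4. Fbl, the methyltransferase that modifies ribosomal RNA, went from 117 and 97.3 TPM on untreated plates to between 46.5 and 59.1 TPM in untreated gels, and Nop56, its partner, from 111 and 113 TPM to between 17.5 and 28.1 TPM. Mitochondrial ribosomal proteins, which build a different ribosome, showed 8 higher and 55 lower of 78 without IL-4 and 7 and 62 with IL-4. RNA polymerase I machinery showed 3 higher and 10 lower of 14, and 2 and 9. Other initiation factors showed 2 higher and 23 lower of 27 at both treatments, and regulators of mTORC1 and TOP mRNAs 5 and 14 of 22, and 4 and 15.

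The list of translation factors with TOP mRNAs was divided, with 12 higher and 6 lower of 19 without IL-4 (median 0.28) and 11 and 7 with IL-4 (median 0.15). Its largest falls were those of Nap1l1 (−0.93 and −1.02), Hnrnpa1 (−0.86 and −0.83) and Eef1g (−0.84 and −0.82), without and with IL-4. Its largest rises were those of Eif4b (1.03 and 0.64) and Tpt1 (0.95 and 0.69). Eef1a1, the most abundant elongation factor, rose from 5056 and 4871 TPM on untreated plates to between 6348 and 6882 TPM in untreated gels, with a difference of 0.41 on the log2 scale. The 14 proliferation genes were all lower, with medians of −2.29 and −1.95. No test compared these lists with the ribosomal protein genes.

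**Figure D5:**
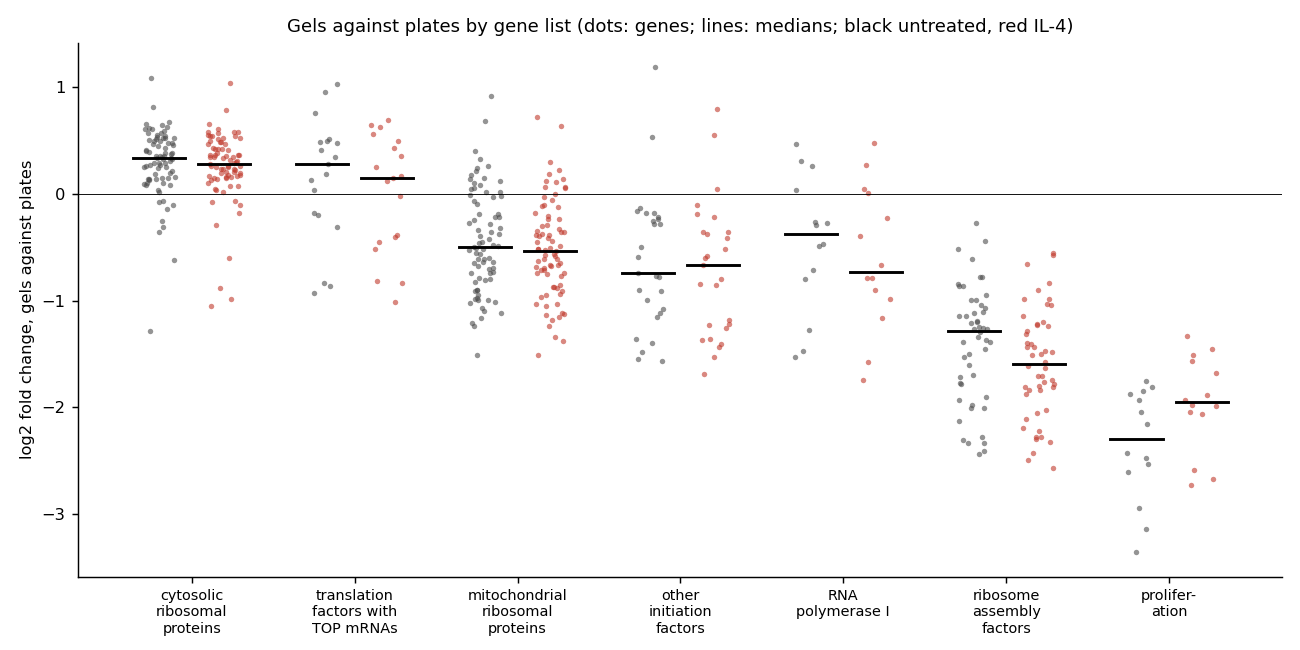
Log2 fold change of TPM + 1 between gels and plates (vertical axis) of single genes in 7 lists, black without and red with IL-4, with black lines at the medians. Cytosolic ribosomal proteins and translation factors with TOP mRNAs have medians above 0, and the medians of the other 5 lists are below 0, lowest for ribosome assembly factors and proliferation genes.

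The comparison at the centre of the study, high against low collagen, moved few of these genes. Without IL-4, 3 of 78 were higher in high-collagen gels and 0 lower, against 3.23% and 4.79% of all genes tested. With IL-4, 1 was higher and 6 were lower, against 14.1% and 6.99%. The medians were 0.06 and −0.04 for the 78 genes, against −0.02 and 0.06 for all genes. Both of these comparisons were unstable. Without single libraries the calls were between 0 and 7 untreated and between 1 and 11 with IL-4, and under quantile normalization they were 11 higher and 1 lower untreated and 13 higher and 4 lower with IL-4. The shares of all genes in these settings are not given.

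Untreated, Rps3, a small-subunit protein that also takes part in DNA repair, had 1128 and 1110 TPM in low-collagen gels and 1265 and 1297 TPM in high-collagen gels (0.19, adjusted p = 0.123, limma). Rpl39, a protein of the exit tunnel, had 533 and 540 TPM against 610 and 639 TPM (0.22, adjusted p = 0.196), and Rpl7a, a large-subunit protein, 1218 and 1145 TPM against 1303 and 1352 TPM (0.17, adjusted p = 0.181). Rpl7a was higher with IL-4 as well, with 1211 and 1213 TPM against 1422 and 1391 TPM (0.21, adjusted p = 0.0601). Groups did not overlap in these 4 cases, yet each call was lost without at least 1 library.

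With IL-4, Rpl10a had the largest fall, from 579 and 568 TPM in low-collagen gels to 460 and 410 TPM in high-collagen gels (−0.40, SE 0.068, adjusted p = 0.0237, limma). This call held when any library was left out, and the family sum of Rpl10a gave −0.18 (adjusted p = 0.132). The other 5 were Rpl41 (−0.20), Rpl13 (−0.19), Rps23 (−0.16), Rps26 (−0.15) and Rps2 (−0.13), each with an adjusted p-value between 0.09 and 0.188 and each lost without at least 1 library. Rps23, which helps to decode the mRNA, was not lower as the family sum (0.020). In the same comparison Myc was lower in high-collagen gels, by −0.52 untreated and −0.63 with IL-4, as was Ubtf, an activator of RNA polymerase I, by −0.39 and −0.50. Against all-gene shares of 3.23% higher and 4.79% lower untreated and 14.1% and 6.99% with IL-4, ribosome assembly factors showed 0 higher and 1 lower of 50 untreated and 0 and 9 with IL-4, and translation factors with TOP mRNAs 2 and 1 of 19, and 9 and 1.

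Whether the response to IL-4 differed between collagen concentrations was tested as an interaction. None of the 78 genes was called by limma (0 higher and 0 lower, against 0.194% and 0.169% of all genes), and 6 had an unadjusted p-value under 0.05. The median interaction was −0.10. The larger number of calls with IL-4 in low- than in high-collagen gels is therefore not shown to be a difference between the gels.

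The interaction of gels and plates with IL-4 gave 1 higher and 9 lower genes, against 10.8% and 16.4% of all genes, with a median of −0.03. The lower genes had a smaller or opposite response to IL-4 in gels than on plates. Rps27l rose with IL-4 on plates by 0.36 (adjusted p = 0.00592, limma) and had 0.039 and 0.16 in low- and high-collagen gels, and its interaction was −0.26. Rps9 had −0.26, Rpl21 −0.24, Rpl7 −0.20, Rpl23a −0.19, Rpl7a −0.19 and Rpl6 −0.16. Rpl12 (−0.73) and Rpl5 (−0.35) had 0.00032 and −0.088 as family sums, and Rpl21 had −0.10 (adjusted p = 0.355, limma), none of them called. Rps13, the gene called higher (0.28), had −0.15 as the family sum, called in the other direction. Calls of Rpl12, Rps9 and Rpl21 held when any library was left out, and the other 7 did not. Without untreated plate library 2, 5 genes were called.

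Ribosomal proteins that the name rule leaves out moved in part with the 78 genes. Of 8 measured, 4 rose with IL-4 in each culture, 2 fell in high-collagen gels, and 6 were higher and 1 was lower in gels than on plates at both treatments. Rps3a1, a small-subunit protein with a mean of 1391 TPM, rose with IL-4 by 0.20, 0.13 and 0.21 in low-collagen gels, high-collagen gels and on plates, and was higher in gels by 0.42 without and 0.38 with IL-4. Rack1, a scaffold on the small subunit with 1045 TPM, rose with IL-4 by 0.24, 0.15 and 0.27 and was higher in gels by 0.19 and 0.11. Rpl22l1, a paralog of Rpl22 that can replace it, had 240 TPM and rose with IL-4 in gels by 0.30 and 0.28, while it had −0.02 on plates (adjusted p = 0.897, limma). Rpl7l1, a paralog of Rpl7 that acts in ribosome assembly, was lower in gels, by −0.52 and −0.70.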

How the data were processed

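Stranded mRNA libraries of murine BMDMs were sequenced with paired 38-base reads. The authors quantified transcripts with kallisto 0.46.1 on GRCm38 cDNA (versions per the labels and methods) and deposited TPM per gene. How transcripts were summed to genes is not given in the sources used here. TPM scale every library to the same total and keep no depth, and reads shared by similar transcripts are divided by estimation.

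Of 34456 lines, 129 repeated a symbol with its values and were collapsed. The test was limma 3.58.1 (R 4.3.3) on log2(TPM + 1), with variances moderated along a trend in mean level, and p-values adjusted by Benjamini-Hochberg over every gene whose mean was 1 TPM or more. The 8 gel libraries were fitted together (11852 genes), and all 12 for comparisons with plates (11865 genes), giving 9 comparisons. Exact permutation tests cannot go below 0.33 for 2 against 2 libraries, or 0.133 for 4 against 2. Data of 11852 genes, 200 of them changed, were simulated for IL-4 in low-collagen gels. Of 2-fold changes 93% were called and of 0.25 log2 changes 6%, so that small changes were mostly missed in the simulation. Of the calls 19.5% were false. For IL-4 on plates (11865 genes, 200 changed) these were 89%, 8% and 21.8%. In the data far more genes were called (6351 and 4598), which loosens the Benjamini-Hochberg cutoff. The simulated shares of called changes therefore do not carry over to the data.

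Shared sequence was counted in 31-base words of GRCm38 transcripts. Promoters are from RefSeq. Ribosomal protein genes, gene lists and tests were chosen with earlier results of these data known. Genes were named by a rule: the 2 largest rises and falls called in each comparison, the 3 highest and lowest genes, known paralogs, stalk genes and Rpsa, genes outside the name rule, genes farthest from the median, those with the most abundant copies, and the largest changes of the other lists. Of the genes that this rule took from the other lists, only a selection is named in the text. Rps2, Rps9, Rps29, Rpl28, Rpl4, Rpl8, the remaining called collagen and interaction genes, and Fbl, Nop56 and Eef1a1 were named after their values were seen. The values of 1 gene are not reported here. Alternatives were an unfiltered table, a minimum mean of 5 TPM, a pseudocount of 0.1, an adjusted p-value under 0.05, median-ratio and quantile scaling, equal medians of the 78 genes, the replicate number as a block, other libraries in the fit, correction for GC content and length, and each library left out. Family sums for the calls and medians were added after seeing the data. Software was matplotlib 3.10.9, numpy 2.4.6 and pandas 2.3.3 in Python 3.11.15.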

Additional observations from a re-analysis of the deposited data

Results flagged for a closer look

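In 10 ribosomal protein genes the response to IL-4 differed between gels and plates by a test of that difference (limma interaction, adjusted p-value under 0.2). The interaction, on the log2 scale, was 0.28 for Rps13, −0.16 for Rpl6, −0.19 for Rpl7a, −0.19 for Rpl23a, −0.20 for Rpl7, −0.24 for Rpl21, −0.26 for Rps9, −0.26 for Rps27l, −0.35 for Rpl5 and −0.73 for Rpl12. The background was 10.8% of all genes called higher and 16.4% called lower. Of these, 9 have copies that share their sequence, Rps27l being the exception. Family sums gave −0.15 for Rps13, −0.10 for Rpl21, −0.088 for Rpl5 and 0.00032 for Rpl12, of which that of Rps13 alone was called, in the other direction. The copies of Rpl23a, Rpl7a, Rpl6, Rpl7 and Rps9 had summed means of 9.49, 6.15, 3.38, 0.588 and 0.361 TPM against over 1000 TPM for each gene, too little for their family sums to bear on the interaction. The causes were not tested.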

How the results depend on the processing

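Comparisons are given in the order IL-4 in low-collagen gels, in high-collagen gels and on plates, high against low collagen without and with IL-4, gels against plates without and with IL-4, the collagen by IL-4 interaction and the gel by IL-4 interaction. The 78 ribosomal protein genes gave 60, 30, 56, 3, 7, 72, 69, 0 and 10 calls in that order. The shares of all genes in the Results belong to these calls, and those under the alternatives below are not given. Quantile normalization gave 25, 18, 37, 12, 17 and 19 for those that moved by over 1.5 times (the first 5 and the last). With the median of the 78 genes set equal, the first 4 were 29, 13, 23 and 0. An adjusted p-value under 0.05 gave 34, 8, 34, 0 and 1 for the first 5 and 3 for the last. Median-ratio rescaling gave 0 and 4 for collagen and 3 for the last, and no filter gave 12 for IL-4 in high-collagen gels and 0 and 3 for collagen. With all 12 libraries in the fit, collagen gave 5 and 12 calls, and with a correction for GC content and length 6 and 4.

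Median log2 fold changes moved with scaling. Under median-ratio rescaling they were 0.41, 0.22 and 0.26 for IL-4, −0.12 for collagen with IL-4, 0.52 and 0.57 for gels against plates and −0.20 and 0.070 for the interactions. Under quantile normalization they were 0.023, −0.014 and 0.12 for IL-4, then 0.022, 0.28 and 0.15, then −0.039 and −0.091. With equal medians they were by construction near 0 (−0.011, −0.0086 and −0.0053 for IL-4, −0.0041 for collagen untreated, −0.00097 and −0.015 for gels, −0.0051 for the collagen interaction). The correction for GC content and length gave 0.11 for collagen untreated and 0.33 for gels with IL-4, genes under 50% shared words gave 0.38 and 0.36 for gels, and family sums −0.056 for the collagen interaction. The group shares of TPM with numbered pseudogene rows were 8.72% and 10.2% on plates, 11.1% and 12.9% in low-collagen gels and 11.5% and 12.6% in high-collagen gels, and with copies by shared words 9.70% and 11.4%, 12.3% and 14.3%, and 12.8% and 14.1%.

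Leaving out 1 library at a time gave between 31 and 68 calls for IL-4 in low-collagen gels, 9 to 37 in high-collagen gels, 0 to 7 and 1 to 11 for collagen, and 5 to 14 for the gel interaction. The medians ranged from 0.13 to 0.28 for IL-4 in low-collagen gels, −0.0095 to 0.14 and −0.065 to 0.015 for collagen, −0.15 to −0.026 for the collagen interaction and −0.064 to 0.012 for the gel interaction. Of 79 calls of single genes tried, 46 held without each library and 33 were lost without at least 1.

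Deviations of libraries with the same replicate number correlated between −0.12 and 0.11, so no pairing by number was seen over all genes. Such correlations cannot show a pairing that touches few genes. With the replicate block the calls were 60, 23, 56, 1, 4, 71, 70, 0 and 10.

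Single genes took the other sign as follows. With pseudogene rows by either name or shared words, Rpl10 with IL-4 in low-collagen gels gave 0.058, Rpl27 in gels 0.036 or 0.13 without and 0.35 or 0.13 with IL-4, Rps13 in the gel interaction −0.15 and Rps23 for collagen with IL-4 0.022 or 0.020. With shared words, Rpl12 gave 0.39 and 0.34 for IL-4 in low- and high-collagen gels and 0.00032 for the gel interaction, and Rpl5 gave 0.12 for IL-4 in low-collagen gels and 0.46 and 0.37 in gels against plates. In gels against plates, Rps18 gave −0.076 and −0.070 under quantile normalization, −0.26 and −0.13 with equal medians and −0.0014 without IL-4 after the GC and length correction. With equal medians Rplp1 gave −0.15 and −0.10, Rplp0 −0.14 and −0.15, and Rplp2 with IL-4 −0.043, and Rplp0 with IL-4 gave −0.0012 under quantile normalization. Under median-ratio rescaling Rpsa gave 0.10, Rpl8 0.077 and 0.20 and Rpl4 0.11 and 0.11, and the GC and length correction gave 0.086 for Rpsa and 0.092 for Rpl4 without IL-4. With IL-4, Rplp0 in high-collagen gels gave −0.0070 and Rplp2 in low-collagen gels −0.030 under quantile normalization, and the latter −0.014 with equal medians. The causes were not tested. The unknown depth limits what can be said of genes at low TPM.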
